A study of Rattus norvegicus with 40 samples.

Results

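Genes of cholesterol and fatty acid synthesis were followed in rat dorsal root ganglia (DRGs), the clusters of sensory neurons and glia beside the spinal cord, after nerve injury. The set held 34 genes, named by pathway: 18 of the sterol pathway, 11 of the fatty acid pathway and 5 regulators. A gene entered through probesets whose platform annotation gives its symbol alone, and the probeset with the highest mean log2 signal over all 40 arrays stood for it. By that rule 33 of the 34 genes were measured, out of 14217 genes on the array with such a probeset. The synthase Hmgcs1 is not analysed here. The arrays came from male Sprague-Dawley rats, 5 with spinal nerve ligation (SNL), in which the L5 spinal nerve was tied, and 5 with sham surgery, in which no ligature was placed. Ganglia of the L4 and L5 segments were taken from the operated (ipsilateral) and the other (contralateral) side after 4 weeks, and each ganglion was hybridised to its own Affymetrix rat genome array, which gives 8 groups of 5 arrays. In this model the L5 ganglion is the one whose nerve was tied, and the L4 ganglion beside it keeps its nerve. The labels give the SNL L5 arrays another array series name than the rest, so every comparison of sides stayed within 1 series. The contralateral ganglion of the same rats was the reference, and the sham cohort showed the side difference without ligation.

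Cholesterol is built from acetyl-CoA through mevalonate, isoprenoid phosphates and squalene to lanosterol, which a series of enzymes of the endoplasmic reticulum trims to cholesterol. Fatty acids are built from the same precursor by acetyl-CoA carboxylase and fatty acid synthase, and are then elongated, desaturated and joined to CoA. Both pathways are driven by the SREBP transcription factors, whose precursors are carried by SCAP from the endoplasmic reticulum to the Golgi for cleavage and are held back by the INSIG proteins when sterols are plentiful. In peripheral nerve and ganglia these lipids are needed in bulk for myelin, which Schwann cells make, and for the membranes of long axons.

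Values are deposited linear signals with a trimmed array mean of 99.99, and differences are ipsilateral minus contralateral means of log2(signal + 16), which understates the change of a dim gene. A difference was called at an adjusted p under 0.05 (limma, Benjamini-Hochberg over 31042 probesets), and adjusted p-values are given on that scale, with 5 arrays per side. Signals of a group are listed in ascending order, the contralateral side first. The median array signal was higher on the ipsilateral side by 4.97 to 7.12 in the 4 comparisons, and scaling every array to the same median moved the median difference of all genes on the log2 scale by -0.10 and -0.13 at L4 and L5 of SNL rats and by -0.18 and -0.25 at those of sham rats. GAPDH control probesets at the 3′ and 5′ ends of the transcript, whose log2 ratio rises with RNA degradation, had a ratio higher ipsilaterally by 0.95 and 0.64 at L4 and L5 of SNL rats (exact permutation p = 0.00794 each) and by 0.43 (0.00794) and 0.09 (0.175) at those of sham rats. The actin ratio differed by 0.77 (exact permutation p = 0.0159) and 1.14 (0.00794) in SNL rats and by -0.21 (0.159) and 0.22 (0.0556) in sham rats, so that the 2 ratios went opposite ways in sham L4. The 10 neuronal markers, which define the tissue, had summed signals of 12185 to 33936 over all arrays, and the summed signal of the 9 adipocyte markers, cells rich in lipid synthesis that can lie around a ganglion, was 207 to 494. In bulk tissue, fewer cells of a type and less RNA per cell cannot be told apart.

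In the L4 ganglia of SNL rats, 7 of the 33 genes were called higher (all genes, 11%) and 8 lower (all genes, 10%). In their L5 ganglia, 10 were called higher (all genes, 35.4%) and 14 lower (all genes, 19%). Sham L4 ganglia had 5 called higher (all genes, 12.8%) and 9 lower (all genes, 13.7%), and sham L5 ganglia had 4 higher (all genes, 21.4%) and 14 lower (all genes, 28.2%). Called genes whose 2 sides did not overlap numbered 11 in SNL L4 (all genes, 15%), 16 in SNL L5 (all genes, 40.3%), 6 in sham L4 (all genes, 16.1%) and 9 in sham L5 (all genes, 32.2%). The median difference of the 33 genes was 0.06 and -0.05 at L4 and L5 of SNL rats and -0.11 and -0.14 at those of sham rats, beside medians of 0.07, 0.13, 0.01 and -0.03 over all genes. With every array scaled to the same median, the counts were 4 higher and 11 lower in SNL L4, 1 and 21 in SNL L5, 2 and 23 in sham L4 and 1 and 31 in sham L5, and the shares of all genes called higher and lower became 5.2% and 15.5%, 21.1% and 28%, 6.29% and 38%, and 10.9% and 56.7%. Quantile normalization gave 6 higher and 7 lower in SNL L4, 8 and 11 in SNL L5, 5 and 6 in sham L4 and 3 and 12 in sham L5. The shares of all genes were then 9.31% and 10%, 27.9% and 21%, 7.1% and 10.8%, and 11.2% and 27.5%. The balance of directions depended on the scaling: it shifted to lower with equal medians and moved less with quantile normalization. By role, the sterol genes were called higher and lower in 2 and 3 of 17 in SNL L4, 5 and 7 in SNL L5, 1 and 5 in sham L4 and 1 and 8 in sham L5. Of the 11 fatty acid genes, 4 and 3 were called in SNL L4, 3 and 5 in SNL L5, 3 and 3 in sham L4 and 2 and 4 in sham L5. As deposited, both pathways had genes called in each direction in all 4 comparisons. With equal medians no sterol gene was called higher in SNL L5, sham L4 or sham L5, and with quantile normalization none was in sham L5.

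**Figure D1:**
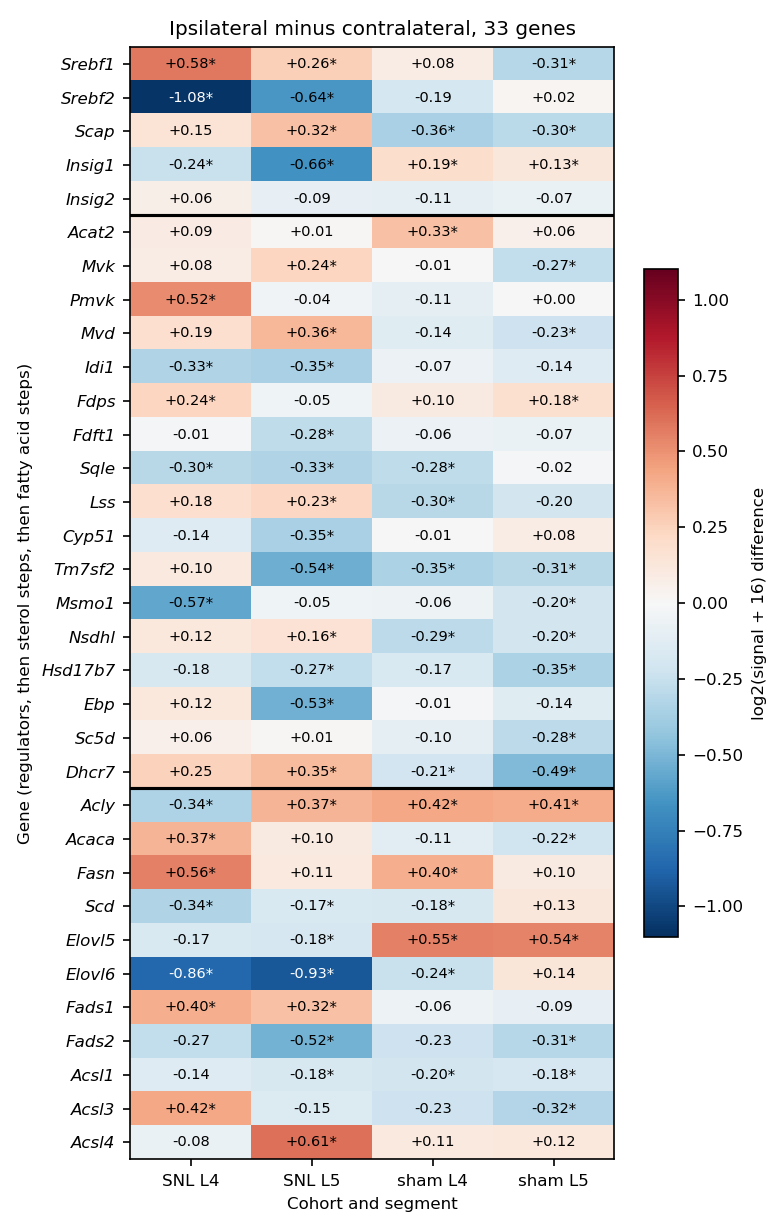
Ipsilateral minus contralateral difference of mean log2(signal + 16) for the 33 genes (rows) in the 4 comparisons (columns), 5 arrays per side; blue is lower and red is higher on the operated side, and a star marks an adjusted p under 0.05. The darkest fields are Srebf2 in SNL L4 at -1.08 and Elovl6 in SNL L5 at -0.93.

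Among the regulators, Srebf2 and Insig1 fell in both segments of SNL rats. Srebf2 encodes the SREBP that mainly drives the sterol genes. Its contralateral signals in SNL L4 were 431, 444, 458, 467 and 501, and its ipsilateral signals were 184, 207, 210.4, 219 and 226. The ipsilateral arrays were the lowest of all 40, with no overlap, and the gene fell by 1.08 ± 0.07 (SE) on the log2 scale (adjusted p = 1.07e-08). At L5 the contralateral arrays gave 502, 567, 579.8, 582 and 592 and the ipsilateral arrays 325, 341, 351, 380.5 and 385, again apart, and the gene fell by 0.64 ± 0.06 (SE, adjusted p = 1.27e-07). In sham rats the sides overlapped at both segments, at 313 to 419 and 280 to 364 in L4 and at 391 to 479 and 397 to 496 in L5, and the gene was not called (adjusted p = 0.0799 and 0.816). A second Srebf2 probeset was near background, with group means of 5.32 to 23.4, and did not fall. It was called higher in SNL L5 (0.44), sham L4 (0.48) and sham L5 (0.36), and its difference in SNL L4 was 0.15. Averaging the probesets of a gene left Srebf2 called in SNL L4 at -0.47 and ended the call in SNL L5 at -0.10.

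Insig1, whose protein retains the SREBP precursors and whose gene is itself a classic SREBP target, also fell in both SNL segments. In SNL L5 the contralateral arrays gave 1224, 1247, 1287, 1371 and 1493 and the ipsilateral arrays 786, 796, 819, 843 and 901. The sides were far apart, and the gene fell by 0.66 ± 0.06 (SE, adjusted p = 8.17e-08). In SNL L4 the values were 1283, 1323, 1325, 1364 and 1453 and 1115, 1118, 1142, 1158 and 1160, close but apart, and the gene fell by 0.24 ± 0.05 (SE, adjusted p = 0.00210). Quantile normalization ended the L4 call at -0.15 and a fit without the intensity trend ended it with the value still at -0.24 (adjusted p = 0.0624 and 0.0564). In sham rats the sides overlapped and the differences were 0.19 in L4 and 0.13 in L5, both called higher (adjusted p = 0.0189 and 0.0327). These sham calls turned to -0.04 in L4 with equal medians and to -0.14 and -0.19 in L5 with quantile normalization and equal medians.

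The other 3 regulators were dim. Srebf1, which encodes the SREBPs that drive fatty acid genes, was 48.6 to 82.0 in group means, Scap, the SREBP escort, 73.0 to 128, and Insig2, the second retention factor, 78.3 to 89.8. Srebf1 in sham L5 gave 59.4, 60.7, 64.6, 64.8 and 72.03 contralaterally and 43.6, 45.2, 48.2, 52.1 and 54.00 ipsilaterally, without overlap, and fell by 0.31 ± 0.07 (SE, adjusted p = 0.00218); with its dimmer probeset averaged in, the difference was -0.03 and not called (adjusted p = 0.760). In SNL rats its difference was 0.58 in L4 and 0.26 in L5 (adjusted p = 0.0255 and 0.0264). Both calls ended with probesets averaged (0.30, adjusted p = 0.288, and 0.01, adjusted p = 0.896) and with equal medians (0.44, adjusted p = 0.0732, and 0.09, adjusted p = 0.479). The L4 call was lost without any 1 of contralateral rats 9 and 18 (0.46 and 0.56) or ipsilateral rats 9 and 18 (0.48 and 0.55), and the L5 call without contralateral rats 18 or 48 (0.20 and 0.25) or ipsilateral rats 4, 9 or 48 (0.25 to 0.26). Scap was called lower in both sham segments (-0.36 in L4 and -0.30 in L5) and higher in SNL L5 at 0.32 (adjusted p = 0.0166), with overlapping sides each time; its sham L5 call was lost without contralateral rat 23 or ipsilateral rats 14 or 22, at -0.26 to -0.24. Insig2 lay between -0.11 and 0.06 in the 4 comparisons and was never called.

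The promoters of Srebf2 and Insig1, which both fell in SNL rats, are shown with those of Ebp, a late sterol enzyme that fell in SNL L5, and Fads1, a desaturase that rose. These 4 were picked by direction of change, and a link of motifs with direction was not tested. Each run holds 250 bases before and 50 after the gene start on the gene's own strand, from RefSeq (rat build GRCr8). Capitals mark CCAAT (the box bound by NF-Y, a usual partner of SREBPs) and GGGCGG (the core of an Sp1 box) on either strand, so that the reverse complements ATTGG and CCGCCC are also in capitals. 
Srebf2 (chr7:115543057-115543356, plus strand): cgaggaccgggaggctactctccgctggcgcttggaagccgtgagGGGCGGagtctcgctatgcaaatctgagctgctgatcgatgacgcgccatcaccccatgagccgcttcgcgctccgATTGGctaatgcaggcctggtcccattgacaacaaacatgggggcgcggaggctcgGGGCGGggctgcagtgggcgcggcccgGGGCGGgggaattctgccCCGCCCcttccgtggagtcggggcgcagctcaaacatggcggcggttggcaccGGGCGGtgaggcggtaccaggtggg
Insig1 (chr4:8057720-8058019, minus strand): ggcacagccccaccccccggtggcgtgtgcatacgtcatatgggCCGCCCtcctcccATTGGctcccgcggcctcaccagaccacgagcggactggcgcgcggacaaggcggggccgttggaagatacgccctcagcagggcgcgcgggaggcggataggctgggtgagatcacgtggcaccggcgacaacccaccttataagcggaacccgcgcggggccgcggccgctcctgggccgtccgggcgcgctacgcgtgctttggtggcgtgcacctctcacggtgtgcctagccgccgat
Ebp (chrX:16971212-16971511, plus strand): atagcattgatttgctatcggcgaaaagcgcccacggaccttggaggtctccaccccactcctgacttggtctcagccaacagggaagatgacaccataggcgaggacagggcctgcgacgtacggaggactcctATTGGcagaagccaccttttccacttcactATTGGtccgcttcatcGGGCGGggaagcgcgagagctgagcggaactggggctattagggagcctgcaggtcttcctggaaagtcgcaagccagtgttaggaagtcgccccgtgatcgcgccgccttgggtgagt
Fads1 (chr1:216252442-216252741, plus strand): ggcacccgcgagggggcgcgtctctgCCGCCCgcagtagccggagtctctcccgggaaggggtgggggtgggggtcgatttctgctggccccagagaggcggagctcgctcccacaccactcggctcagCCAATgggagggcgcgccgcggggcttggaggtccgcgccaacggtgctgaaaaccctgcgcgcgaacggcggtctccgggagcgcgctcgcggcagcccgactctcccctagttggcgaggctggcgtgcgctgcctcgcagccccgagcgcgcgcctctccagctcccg
All 4 windows hold both motifs, with 5 GGGCGG matches in Srebf2 and 2 CCAAT matches in Ebp. Some windows not shown lack them: that of Scd holds neither, and those of Cyp51, Dhcr7 and Acsl4 hold no CCAAT. Promoters were matched for 27 of the 33 genes. CCAAT was in 20 of the 27 (74.1%), beside 37.5% of all 33469 rat promoters of that length, and GGGCGG in 21 of the 27 (77.8%), beside 33.1%. The sterol genes held CCAAT in 11 of 14 and GGGCGG in 12 of 14, and the fatty acid genes each in 5 of 8. A consensus sterol element, TCACNCCAC, was searched on both strands and was in none of the 27 windows and in 1.12% of all promoters, which says only that these letters are not in these windows.

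Srebf2 also hosts a microRNA. Mir33 lies on chromosome 7 at chr7:115593952-115594020 on the plus strand, inside the annotated span of Srebf2 (chr7:115542774-115600945, GRCr8) and on the same strand. Its mature products are shown with the seed (bases 2 to 8) in capitals because miR-33 is known to target sterol export genes, which are described below. 
rno-miR-33-5p: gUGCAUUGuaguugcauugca
rno-miR-33-3p: cAAUGUUUccacagugcauca
MicroRNA levels of the study are not analysed here.

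**Figure D2:**
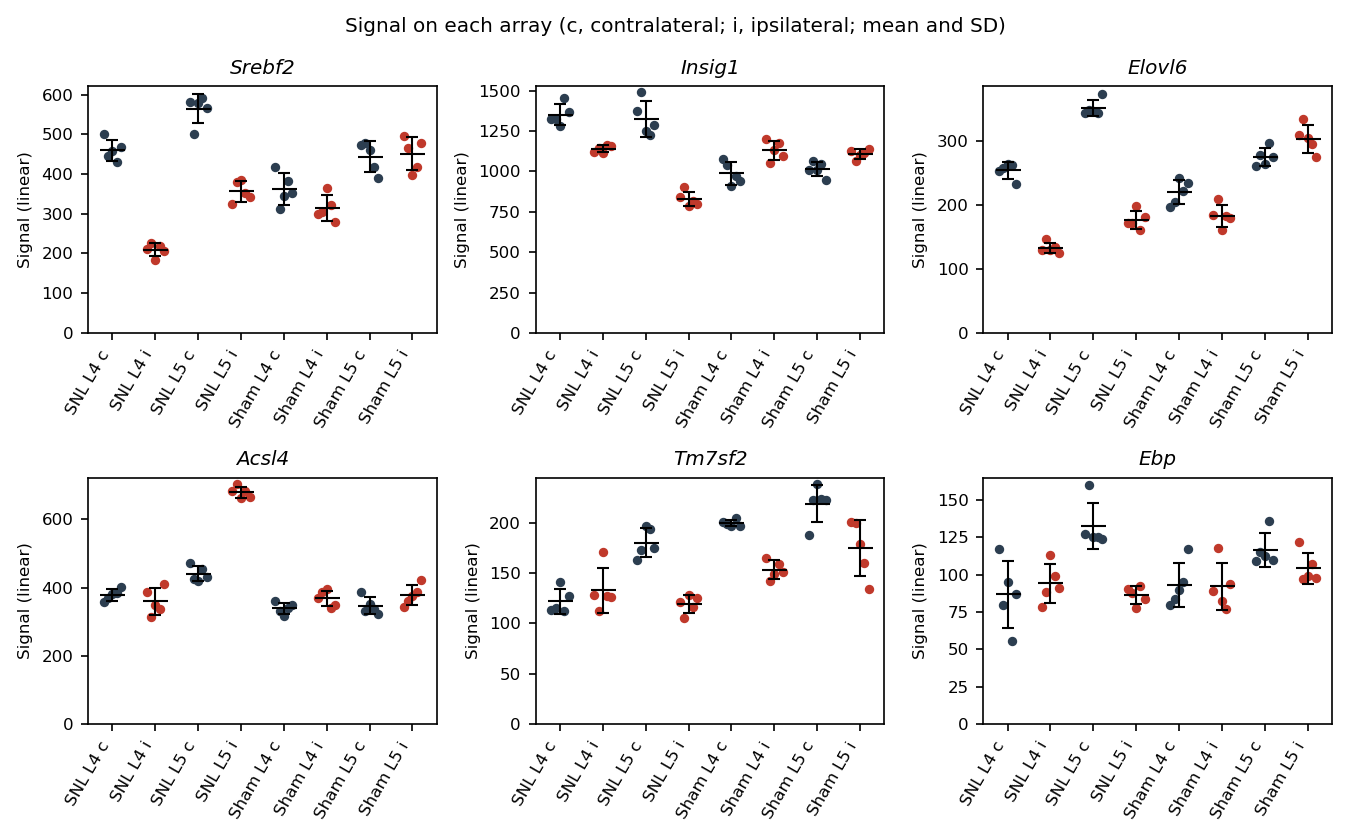
Deposited linear signal (vertical axis, from 0) on each array for 6 genes in the 8 groups (horizontal axis); points are arrays, dark for contralateral and red for ipsilateral, and bars are the mean ± SD of 5 arrays. Srebf2 and Elovl6 were lower ipsilaterally in both SNL segments without overlap, and Acsl4 rose in SNL L5 only among the groups plotted, to 661 to 702.

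Of the 17 sterol genes in SNL L4, 2 were called higher (all genes, 11%) and 3 lower (all genes, 10%), and 3 of these had sides that did not overlap (all genes, 15%). Msmo1, the methylsterol oxidase that removes methyl groups from lanosterol derivatives, gave 344, 348, 365, 380.4 and 422 contralaterally and 226, 235, 236, 259.9 and 270.4 ipsilaterally. The ipsilateral arrays were the lowest of all 40, and the gene fell by 0.57 ± 0.07 (SE, adjusted p = 2.68e-05). Pmvk, which phosphorylates mevalonate phosphate, gave 229, 243, 247, 249.8 and 257 and 338, 363, 363, 364 and 366, and rose by 0.52 ± 0.06 (SE, adjusted p = 9.95e-06). The contralateral arrays were the low ones here: the other 7 groups, with the ipsilateral arrays of SNL L4 among them, lay between 286 and 375. Fdps, farnesyl diphosphate synthase, gave 1151, 1191, 1195, 1201 and 1212 and 1277, 1298, 1422, 1479 and 1570 and rose by 0.24 ± 0.06 (SE, adjusted p = 0.00843). The sides of Fdps were apart by a small margin, and the call ended with equal medians (0.10, adjusted p = 0.356), without the intensity trend (0.24, adjusted p = 0.0875) and in the methods' t-test. Idi1, the isopentenyl diphosphate isomerase (-0.33), and Sqle, squalene epoxidase (-0.30), were called lower with overlapping sides; Idi1 lost its call without contralateral rats 8 or 9 or ipsilateral rats 8 or 18 (-0.32 to -0.29), and Sqle without contralateral rat 18 (-0.22) or ipsilateral rat 8 (-0.27).

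In SNL L5, the ganglion of the tied nerve, 5 of 17 sterol genes were called higher (all genes, 35.4%) and 7 lower (all genes, 19%). Tm7sf2 and Ebp had the largest falls. Tm7sf2, a sterol reductase, gave 163, 172, 174, 194 and 197 contralaterally and 105, 116, 121, 125 and 129 ipsilaterally and fell by 0.54 ± 0.07 (SE, adjusted p = 5.57e-06). Ebp, the sterol isomerase, gave 124, 125, 125, 127 and 159.6 and 77.9, 83.7, 87.5, 90.3 and 92.5 and fell by 0.53 ± 0.08 (SE, adjusted p = 2.12e-05). For both genes every ipsilateral array was below every contralateral array. Tm7sf2 was also called lower in sham L5 (-0.31, overlapping sides), and its SNL minus sham difference at L5 was not called (-0.23, 95% interval -0.48 to 0.02, adjusted p = 0.128). Cyp51, the lanosterol demethylase, gave 1108, 1116, 1136, 1198 and 1228 and 871, 876, 888, 923 and 948 and fell by 0.35 ± 0.05 (SE, adjusted p = 1.43e-05); its probeset is of the kind that can match several transcripts, and a dimmer Cyp51 probeset gave -0.02. Idi1, at 293, 296, 333, 342 and 353 and 239, 241, 244, 262 and 262, fell by 0.35 ± 0.06 (SE, adjusted p = 0.000134), and its dimmer probeset fell by 0.80. That dimmer probeset was also called lower in SNL L4 (-0.31), sham L4 (-0.40) and sham L5 (-0.24). The SNL minus sham difference of Idi1 at L5 was not called (-0.21, 95% interval -0.41 to -0.01, adjusted p = 0.0732). The SNL L5 falls of Tm7sf2, Ebp, Cyp51 and Idi1 kept their sign and call in every alternative run.

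Other sterol genes were higher in SNL L5. Mvd, mevalonate diphosphate decarboxylase, gave 59.3, 59.8, 65.8, 65.97 and 66.7 and 66.8, 83.7, 89.2, 92.9 and 101 and rose by 0.36 ± 0.09 (SE, adjusted p = 0.00343). Dhcr7, which makes cholesterol from its last precursor on one branch, gave 132, 133, 136, 147 and 154 and 159.6, 159.7, 192, 205 and 206 and rose by 0.35 ± 0.08 (SE, adjusted p = 0.00134). The sides of Mvd nearly touched and those of Dhcr7 were apart. With equal medians neither was called (0.18, adjusted p = 0.125, and 0.15, adjusted p = 0.141). The other 6 called sterol genes lay between -0.33 and 0.24, among them Sqle, which fell by 0.33 without overlap, and Lss, lanosterol synthase, which rose by 0.23 without overlap. The Lss call ended with equal medians (0.03, adjusted p = 0.756) and with probesets averaged (0.03, adjusted p = 0.839), and its dimmer probeset gave -0.16. The remaining 5, Acat2, Pmvk, Fdps, Msmo1 and Sc5d, lay between -0.05 and 0.01 and were not called. The dimmer Sc5d probesets, however, were called lower, at -0.25 and -0.32.

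Among the 17 sterol genes in sham L4, 1 was called higher (all genes, 12.8%) and 5 lower (all genes, 13.7%). The counts in sham L5 were 1 higher (all genes, 21.4%) and 8 lower (all genes, 28.2%). Most called sterol genes of sham rats were lower on the operated side. In sham L4, Tm7sf2 gave 196, 197, 199, 201 and 204 contralaterally and 142, 149, 151, 159 and 165 ipsilaterally and fell by 0.35 ± 0.06 (SE, adjusted p = 0.000492). Sqle gave 450.2, 459, 461, 470.3 and 492 and 363, 364, 367, 404 and 407 and fell by 0.28 ± 0.05 (SE, adjusted p = 0.00123). Acat2, the cytosolic thiolase that joins acetyl-CoA units, was the only sterol gene called higher there: it gave 662, 716, 724, 745 and 816 and 852, 897, 918, 949 and 989 and rose by 0.33 ± 0.06 (SE, adjusted p = 0.000858). None of the 3 overlapped, and the Acat2 call ended with equal medians at 0.10 (adjusted p = 0.255). The other 3 called in sham L4 (Lss, Nsdhl and Dhcr7, at -0.30 to -0.21) had overlapping sides.

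Sham L5 held the largest sterol fall of that cohort. Dhcr7 gave 269.8, 272, 278, 279 and 283 contralaterally and 174, 185, 188, 209 and 209.9 ipsilaterally, far apart, and fell by 0.49 ± 0.06 (SE, adjusted p = 5.48e-06), in the direction opposite to SNL L5. Hsd17b7, a ketosteroid reductase of the pathway, gave 129, 146, 147, 155 and 158 and 101, 102, 111, 123 and 125 and fell by 0.35 ± 0.07 (SE, adjusted p = 0.00101), but its dimmer probeset rose by 0.46 and their mean gave 0.06. Sc5d, the lathosterol desaturase, gave 601, 604, 605, 638 and 695 and 459.7, 479, 517, 536 and 580.1 and fell by 0.28 ± 0.06 (SE, adjusted p = 0.00197). Each of these had sides that did not overlap. The dimmer Sc5d probesets gave 0.08 (not called) and -0.30 (called lower). Mvk, mevalonate kinase, gave 69.5, 71.2, 72.4, 74.2 and 75.5 and 46.3, 51.9, 59.9, 63.2 and 67.3 and fell by 0.27 ± 0.08 (SE, adjusted p = 0.0106); the fit of all 8 groups ended this call (adjusted p = 0.102), its sides did not overlap, and averaging its 3 probesets gave -0.17 (adjusted p = 0.0685). Fdps gave 1085, 1103, 1166, 1168 and 1195 and 1219, 1253, 1299, 1316 and 1381 and was called higher by 0.18 ± 0.05 (SE, adjusted p = 0.00795), yet it was called lower with quantile normalization (-0.17) and with equal medians (-0.14), so its direction changed with the scaling.

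**Figure D3:**
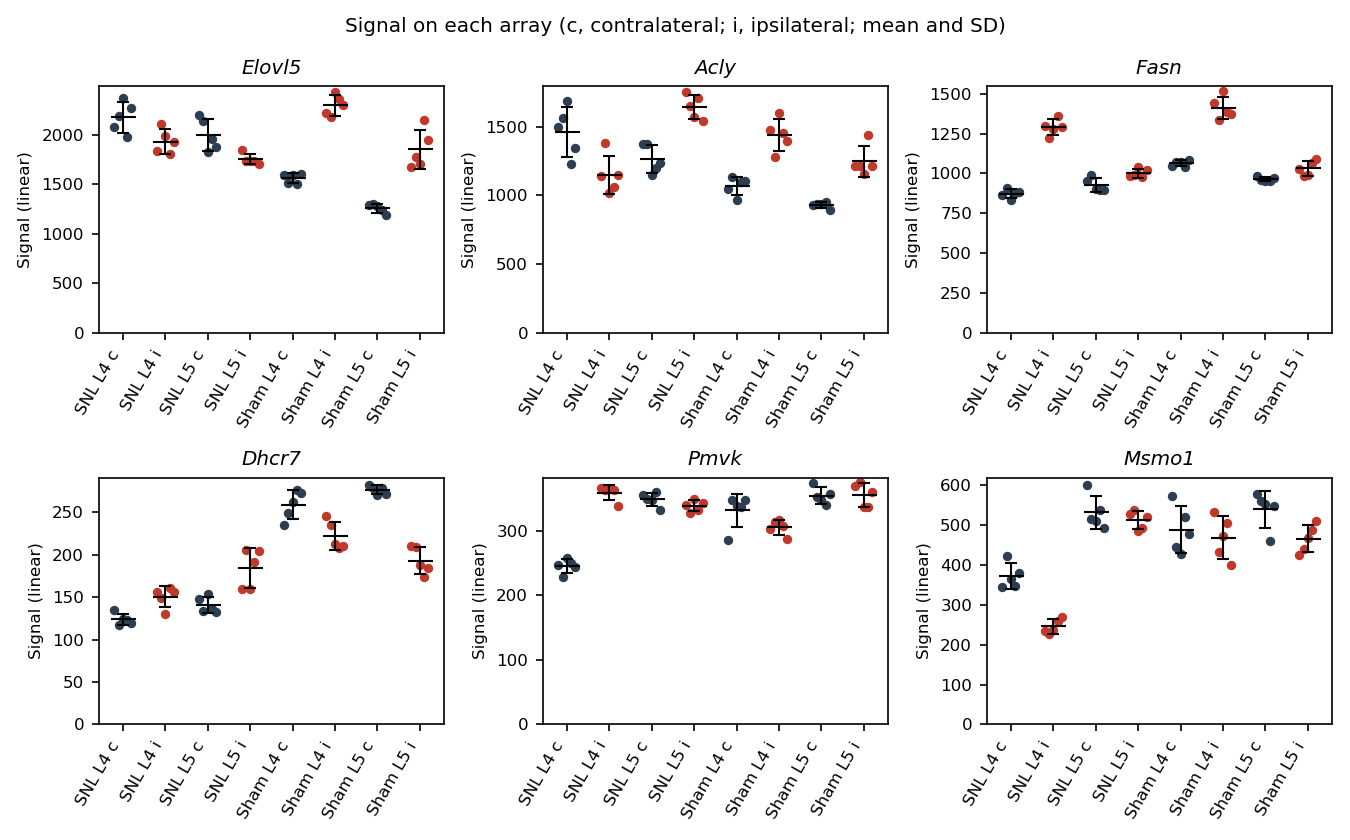
Deposited linear signal (vertical axis, from 0) on each array for 6 genes in the 8 groups (horizontal axis); points are arrays, dark for contralateral and red for ipsilateral, and bars are the mean ± SD of 5 arrays. Elovl5 was higher ipsilaterally in both sham segments, at 1678 to 2430 against 1193 to 1605, and Msmo1 was lowest in ipsilateral SNL L4.

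Among the fatty acid genes, Elovl6 had the largest change and fell in both SNL segments. Elovl6 encodes the elongase that extends palmitate to stearate. In SNL L4 the contralateral arrays gave 232, 253, 258, 263 and 265 and the ipsilateral arrays 125, 129, 129, 135 and 147, and the gene fell by 0.86 ± 0.08 (SE, adjusted p = 3.54e-07). In SNL L5 they gave 343, 345, 348, 349 and 374 and 161, 172, 172, 182 and 198, and it fell by 0.93 ± 0.06 (SE, adjusted p = 5.77e-10). The sides were wide apart at both segments, and both calls held in every alternative run. A dimmer Elovl6 probeset fell by 0.57 in SNL L5 and gave 0.02 in SNL L4 (adjusted p = 0.967). It was called lower in sham L4 (-0.40) and gave 0.04 in sham L5. In sham rats the sides of the brightest probeset overlapped, at -0.24 in L4 (adjusted p = 0.0230) and 0.14 in L5 (adjusted p = 0.0584). Its sham L4 call was lost without contralateral rats 17, 22 or 23 or ipsilateral rat 17, at -0.24 to -0.20.

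Fasn and Acaca, the core enzymes of the route, rose in SNL L4. Fasn, fatty acid synthase, gave 831, 863, 878, 883 and 908 and 1222, 1280, 1289, 1298 and 1362 and rose by 0.56 ± 0.05 (SE, adjusted p = 5.3e-07), and its dimmer probeset rose by 0.32. Fasn rose in sham L4 as well (0.40), and the SNL minus sham difference was not called (0.16, 95% interval 0.02 to 0.29, adjusted p = 0.113). This holds for the brightest probeset only. The dimmer Fasn probeset was called lower in sham L4 (-0.34), and its SNL minus sham difference is not given here. Acaca, acetyl-CoA carboxylase, gave 176, 191, 193, 204 and 221 and 232, 232, 253, 260.2 and 327 and rose by 0.37 ± 0.09 (SE, adjusted p = 0.00831). The sides of both genes were apart, and the Acaca call ended with equal medians (0.24, adjusted p = 0.110) and with its probesets averaged (0.18, adjusted p = 0.348). In the same ganglia Acly, the ATP-citrate lyase that supplies acetyl-CoA, was called lower with overlapping sides (-0.34, adjusted p = 0.00914), and Scd, the stearoyl-CoA desaturase, gave 789, 795, 832, 864 and 883 and 582, 615, 679, 689.9 and 725 and fell by 0.34 ± 0.06 (SE, adjusted p = 0.00119). The Scd call held in every alternative run; the closely related Scd2 has its own probeset, and cross-hybridisation between the pair was not tested.

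Fads1 rose in both SNL segments and Fads2 fell in SNL L5. Fads1, a desaturase of long polyunsaturated fatty acids, gave 441, 461, 481, 481 and 523 contralaterally and 588, 601, 609.8, 615 and 769 ipsilaterally in L4 and rose by 0.40 ± 0.07 (SE, adjusted p = 0.000821). In L5 it gave 459.7, 474, 485, 513 and 537 and 596, 617, 621, 633 and 638 and rose by 0.32 ± 0.05 (SE, adjusted p = 5.65e-05). No ipsilateral array reached down to the contralateral ones in either segment, and the L5 call ended with equal medians at 0.11 (adjusted p = 0.105). Fads2, the partner desaturase, was dim, at 39.5, 43.7, 47.97, 58.8 and 68.5 and 25.2, 27.9, 32.4, 32.5 and 36.4 in SNL L5, and fell by 0.52 ± 0.12 (SE, adjusted p = 0.00200). It was also called lower in sham L5 (-0.31, overlapping sides).

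Of the acyl-CoA synthetases, Acsl4 rose in SNL L5 and Acsl3 in SNL L4. Acsl4, which prefers arachidonate, gave 419.9, 424, 432, 455 and 472 and 661, 666, 681, 684 and 702 in SNL L5 and rose by 0.61 ± 0.05 (SE, adjusted p = 1.58e-08), with every ipsilateral array above all other 35 arrays. In SNL L4 its difference was -0.08 (adjusted p = 0.528). Acsl3 gave 134, 152, 153, 166 and 189 and 192, 206, 214, 234 and 244 in SNL L4 and rose by 0.42 ± 0.09 (SE, adjusted p = 0.00340), by a narrow gap between the sides. It gave -0.15 in SNL L5 (adjusted p = 0.0618) and was called lower in sham L5 at -0.32 with overlapping sides. Acsl1 was called lower in 3 comparisons by 0.18 to 0.20, always with overlapping sides.

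Elovl5 and Acly rose in both sham segments. Elovl5, which elongates polyunsaturated fatty acids, gave 1500, 1514, 1592, 1598 and 1605 contralaterally and 2177, 2217, 2297, 2362 and 2430 ipsilaterally in L4 and rose by 0.55 ± 0.05 (SE, adjusted p = 8.05e-07). In L5 it gave 1193, 1236, 1276, 1294 and 1301 and 1678, 1702, 1780, 1949 and 2151 and rose by 0.54 ± 0.07 (SE, adjusted p = 9e-06). The sides were wide apart in both, but quantile normalization took the L5 difference to 0.09 (adjusted p = 0.108). A dim second Elovl5 probeset went the other way in sham rats, at -0.34 in L4 (not called, adjusted p = 0.0746) and -0.20 in L5 (called lower), and was called lower in SNL rats at -0.94 in L4 and -1.94 in L5, and averaging the probesets ended the sham L4 call at 0.11. In SNL rats the brighter probeset was also lower, at -0.17 in L4 (not called, adjusted p = 0.0591) and -0.18 in L5 (called, adjusted p = 0.0166).

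Acly gave 967, 1044, 1099, 1105 and 1134 and 1277, 1396, 1455, 1480 and 1599 in sham L4 and rose by 0.42 ± 0.06 (SE, adjusted p = 0.000142). In sham L5 it gave 897, 928, 940.3, 941 and 955 and 1157, 1212, 1212, 1218 and 1443 and rose by 0.41 ± 0.06 (SE, adjusted p = 3.44e-05). In SNL L5 it gave 1150, 1202, 1238, 1373 and 1377 and 1544, 1573, 1648, 1706 and 1754 and rose by 0.37 ± 0.06 (SE, adjusted p = 7.41e-05). The 3 comparisons had sides that did not overlap, and all 3 calls ended with equal medians, at 0.19, 0.10 and 0.16. Neuronal markers were also higher in sham rats. Their summed signal was 15191 to 18679 contralaterally and 24740 to 26492 ipsilaterally in sham L4, and 12185 to 13509 and 18146 to 22780 in sham L5. Of the 10 markers, 8 were called higher at each segment and 1 lower in sham L5. In SNL L4 their sum was 26518 to 28551 and 30015 to 33936, with 5 called higher and 2 lower. There Acly was called lower (-0.34) and Elovl5 was not called (-0.17). In SNL L5, where Acly rose, the sum was 17685 to 22442 and 16044 to 18943, with 3 called higher and 6 lower. The part of neuronal content in these differences was not tested.

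The last 2 sham results without overlap were Fasn and Acaca. Fasn gave 1043, 1048, 1072, 1074 and 1085 and 1336, 1371, 1388, 1440 and 1514 in sham L4 and rose by 0.40 ± 0.05 (SE, adjusted p = 1.77e-05), while its dimmer probeset fell by 0.34 and their mean gave 0.03. Acaca gave 374, 382, 383, 419 and 479 and 322, 329.7, 355, 359.7 and 364 in sham L5 and fell by 0.22 ± 0.07 (SE, adjusted p = 0.0120), a call that ended with quantile normalization (-0.13, adjusted p = 0.140), in the fit of all 8 groups (adjusted p = 0.0937) and with its probesets averaged (-0.11, adjusted p = 0.207).

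The side differences of SNL rats were then set against those of sham rats, and the difference between them was tested (limma). The values are of the brightest probeset of a gene, and averaging probesets was not tried on these differences. At L4, 8 of the 33 genes had a higher side difference in SNL rats (all genes, 8.93%) and 6 a lower one (all genes, 7.73%). At L5 these counts were 11 (all genes, 32.1%) and 9 (all genes, 18.3%). Lower in SNL than in sham at both segments were Srebf2 (-0.89 ± 0.11 and -0.66 ± 0.10, SE), Insig1 (-0.43 and -0.79), Elovl6 (-0.62 and -1.07) and Elovl5 (-0.72 and -0.73). For Elovl5 the side differences behind these values were -0.17 and -0.18 in SNL and 0.55 and 0.54 in sham rats. At L5 its contralateral arrays gave 1825 to 2202 in SNL and 1193 to 1301 in sham rats, while its ipsilateral arrays overlapped (1706 to 1845 and 1678 to 2151). Quantile normalization ended the Insig1 call at L4 (-0.20, adjusted p = 0.138). At L5, Cyp51 was lower by -0.43 as deposited and by -0.08 with quantile normalization, which ended its call (adjusted p = 0.394), as it did that of Scd (-0.30 and -0.09, adjusted p = 0.441). Some dimmer probesets ordered the cohorts the other way. At L4 that of Elovl6 gave 0.02 in SNL and -0.40 in sham rats, and that of Scap, near background, -0.01 and 0.09. At L5 that of Cyp51 gave -0.02 in SNL and -0.21 in sham rats, and that of Scap 0.12 and 0.39. For Srebf1, higher in SNL at L5 by 0.58, a dimmer probeset near background gave -0.24 and 0.26 there. For Sc5d, higher in SNL by 0.30, a dimmer probeset gave -0.25 and 0.08. Acly (-0.77) and Msmo1 (-0.51) were lower at L4.

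Higher in SNL than in sham at both segments were Fads1 (0.45 and 0.41), Dhcr7 (0.46 and 0.84), Lss (0.49 and 0.43), Scap (0.51 and 0.62) and Acaca (0.48 and 0.32). Quantile normalization ended the calls of Scap at L4 (0.34, adjusted p = 0.219), Acaca at L4 (0.49, adjusted p = 0.0508) and Lss at L5 (0.26, adjusted p = 0.0959), and that of Tm7sf2, higher at L4 by 0.45 (0.28, adjusted p = 0.189). The Dhcr7 difference at L5 had a 95% interval of 0.63 to 1.04 (adjusted p = 8.82e-08) and held a rise in SNL and a fall in sham rats. Its contralateral arrays there gave 132 to 154 in SNL and 270 to 283 in sham rats. Its ipsilateral arrays overlapped, at 160 to 206 and 174 to 210. For Fads1 the ipsilateral arrays of SNL and sham rats also overlapped, at 588 to 769 and 627 to 721 in L4. In L5 they gave 596 to 638 and 601 to 713, and the contralateral arrays 460 to 537 in SNL and 626 to 731 in sham rats. Cohort and array series cannot be told apart for these L5 levels. Scap at L4 lost its call without either SNL array of rat 48, sham contralateral rats 17, 22 or 23 or sham ipsilateral rats 1 or 14 (0.43 to 0.50). Acaca at L4 lost it without SNL contralateral rats 4, 18 or 48, SNL ipsilateral rats 8 or 9, sham contralateral rat 22 or sham ipsilateral rats 1 or 14 (0.36 to 0.48). Acaca at L5 lost it without SNL contralateral rats 4, 18 or 48, SNL ipsilateral rat 48, sham contralateral rat 23 or sham ipsilateral rats 22 or 23 (0.24 to 0.31), and with the rat as replicate block Acaca at L5 had an adjusted p of 0.0593. Pmvk (0.63) and Acsl3 (0.65) were higher at L4, and Acsl4 (0.49), Mvd (0.59) and Mvk (0.51) at L5. The SNL and sham L5 arrays belong to different array series, so this test compares differences of sides taken within each series.

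**Figure D4:**
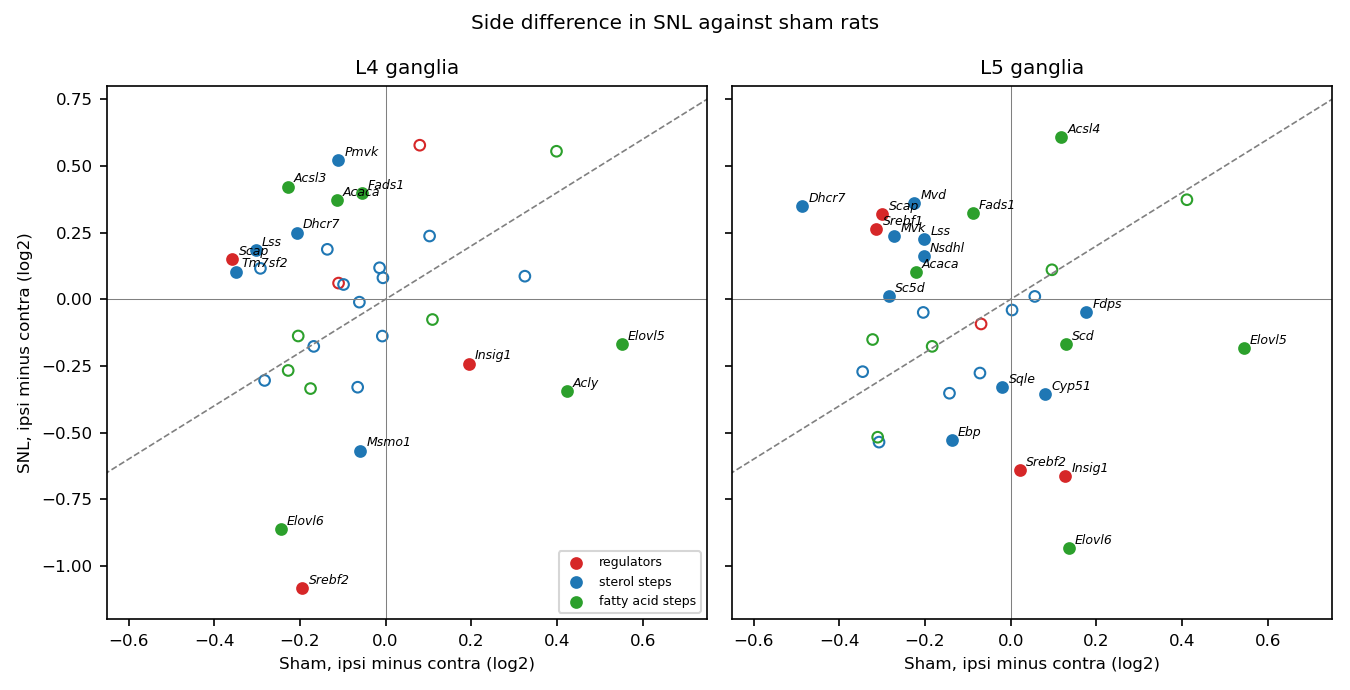
Side difference (ipsilateral minus contralateral mean of log2(signal + 16), 5 arrays per side) in SNL rats (vertical axis) against sham rats (horizontal axis) for the 33 genes, L4 left and L5 right; filled and named points differed between the cohorts at an adjusted p under 0.05, open points did not, colours mark the 3 roles, and the dashed line is equality. Srebf2, Insig1, Elovl6 and Elovl5 lie below the line in both panels, and Dhcr7 and Fads1 above it.

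Between the 2 segments of SNL rats, 4 of the 33 genes had a higher side difference at L5 (all genes, 15.1%) and 8 a lower one (all genes, 10.3%). Higher at L5 were Acly (0.72), Acsl4 (0.68), Msmo1 (0.52) and Srebf2, whose fall was smaller at L5 by 0.44. Lower at L5 were Ebp (-0.65), Tm7sf2 (-0.64), Acsl3 (-0.57), Pmvk (-0.56), Fasn (-0.44), Insig1 (-0.42), Fdps (-0.28) and Cyp51 (-0.22). The Cyp51 call was lost without L5 contralateral rats 4 or 8, L5 ipsilateral rats 9 or 48, L4 contralateral rats 4 or 8 or L4 ipsilateral rat 8, at -0.21 to -0.20. Elovl6, which fell in both segments, was not called here (-0.07, 95% interval -0.26 to 0.12). The segments also carry different array series names, and segment and series cannot be told apart. The L4 and L5 ganglia came from the same rats, and the fit treated their arrays as independent.

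The reference side itself differed between the cohorts. In L4, where SNL and sham arrays share 1 series name, the 5 contralateral SNL arrays lay above all 5 contralateral sham arrays for 5 of the 33 genes (all genes, 20.9%) and below them for 13 (all genes, 22.9%). Those above were Srebf2 (431 to 501 against 313 to 419), Insig1 (1283 to 1453 against 907 to 1078), Acly (1226 to 1687 against 967 to 1134), Elovl5 (1979 to 2367 against 1500 to 1605) and Cyp51 (1466 to 1655 against 1046 to 1163). Among those below were Dhcr7 (117 to 134 against 235 to 277), Sc5d (377 to 471 against 688 to 740), Acaca (176 to 221 against 380 to 616) and Fads1 (441 to 523 against 666 to 762). So the ipsilateral Insig1 level of SNL L4 (1115 to 1160) lay inside the sham ipsilateral range (1053 to 1198), whereas that of Srebf2 (184 to 226) lay below every other array. Cohort and any difference in handling cannot be told apart for these levels, which were not tested.

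Several genes had more than 1 probeset, 17 of the 33 with 20 dimmer ones in all. Of the dimmer probesets of called genes, 2 of 6 were called the same way and none the other way in SNL L4, 3 and 1 of 15 in SNL L5, 3 and 1 of 8 in sham L4, and 3 and 4 of 12 in sham L5.

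Several calls with overlapping sides were lost when 1 array was left out, many of them whichever of several arrays it was. In SNL L5, Mvk was not called without contralateral rats 4, 9, 18 or 48 or ipsilateral rats 8 or 9 (0.20 to 0.24), Nsdhl without those contralateral rats or ipsilateral rats 8, 9, 18 or 48 (0.14 to 0.17), Scd without contralateral rats 8 or 18 or ipsilateral rats 4, 8 or 48 (-0.16 to -0.13), and Acsl1 without contralateral rats 8, 9, 18 or 48 or ipsilateral rats 4 or 8 (-0.17 to -0.15). In sham L4, Insig1 was not called without contralateral rats 17 or 23 (0.16 and 0.18), Dhcr7 without rats 17, 22 or 23 of either side (-0.20 to -0.18), Nsdhl without contralateral rats 14, 17, 22 or 23 or ipsilateral rats 1, 17 or 22 (-0.32 to -0.24), Scd without contralateral rats 14, 17, 22 or 23 or ipsilateral rats 1, 17, 22 or 23 (-0.18 to -0.15), and Acsl1 without those contralateral rats or ipsilateral rats 1, 14, 17 or 22 (-0.21 to -0.18). In sham L5, Insig1 was not called without contralateral or ipsilateral rats 1, 17 or 23 (0.10 to 0.13), Mvd without contralateral rats 14, 17 or 23 or ipsilateral rats 14 or 23 (-0.22 to -0.19), Nsdhl without contralateral rats 14, 22 or 23 or ipsilateral rats 17, 22 or 23 (-0.21 to -0.14), Msmo1 without contralateral rat 1 (-0.18) and Acsl1 without contralateral rat 23 (-0.16). The 39 results given above with the value of every array lost no call in 390 fits that each left out 1 array.

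Genes next to the synthesis routes were read from lists of other pathway members. Their counts stand beside the shares of all genes called higher and lower, 11% and 10% in SNL L4, 35.4% and 19% in SNL L5, 12.8% and 13.7% in sham L4 and 21.4% and 28.2% in sham L5. Of 20 genes of cholesterol uptake, transport and efflux, 3 were called higher and 4 lower in SNL L4, 12 and 4 in SNL L5, 1 and 2 in sham L4 and 4 and 11 in sham L5, with median differences of 0.00, 0.37, -0.06 and -0.24. In SNL L5 the largest were Pltp, the phospholipid transfer protein (mean signal 61.9 contralaterally and 268 ipsilaterally, rise of 1.87), Apod, apolipoprotein D (1868 and 4244, 1.17), Lrp1, a lipoprotein receptor (120 and 283, 1.14), and Nr1h3, a sterol sensing nuclear receptor (22.7 and 49.8, 0.77). In SNL L4 they were Ch25h, cholesterol 25-hydroxylase (59.99 and 133, 0.98), Osbp, an oxysterol binding protein (594 and 361, -0.70), Pltp (57.0 and 101, 0.66) and Abca1, the sterol exporter that miR-33 is known to target (762 and 531, -0.51). In sham L5, Pltp (-0.71), Lrp1 (-0.48), Apoe (0.51) and Apod (0.41) were the largest.

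Of 12 further genes of the sterol and SREBP machinery, 1 was called in SNL L4 (Ggps1, which makes geranylgeranyl diphosphate, -0.32) and none in sham L4. In SNL L5, 5 were called higher and 3 lower, led by Mbtps1, the protease that first cuts SREBPs (0.69), Ggps1 (-0.63), Erlin1 (0.53) and Por, the electron donor of Cyp51 (0.44). In sham L5, 1 was called higher and 7 lower, led by Stard4 (-0.40), Por (-0.38), Mbtps1 (-0.36) and Erlin1 (-0.27).

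Other genes of fatty acid and lipid synthesis numbered 25. They were called higher and lower in 4 and 3 in SNL L4, 6 and 6 in SNL L5, 5 and 5 in sham L4 and 5 and 11 in sham L5. Acss2, which activates acetate, rose in SNL L4 (0.54) and SNL L5 (0.76), and Fa2h, the hydroxylase of myelin sphingolipids, rose in SNL L5 (0.72). Acsl6 fell in SNL L5 (-0.89), Hacd3 fell in SNL L4 (-0.49), and Scd2 rose in both sham segments (0.76 and 0.76), as did Hsd17b12 (0.49 and 0.58). Of 13 genes of fatty acid oxidation, the opposite process, none was called higher and 2 lower in SNL L4, 1 and 5 in SNL L5, none and 5 in sham L4 and 1 and 5 in sham L5; Cpt1a, its entry enzyme, fell by 0.41 in SNL L5 and Acadvl by 0.34 there and 0.45 in sham L5.

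Markers of cell types moved with the side as well. In SNL L5, all 7 fibroblast markers were called higher (summed signal 3384 to 3642 contralaterally and 9686 to 11107 ipsilaterally), as were 7 of 9 macrophage markers (363 to 399 and 1052 to 1196), 8 of 11 myelinating Schwann cell markers with 2 lower (7820 to 9369 and 9900 to 12124) and 3 of 10 neuronal markers with 6 lower (17685 to 22442 and 16044 to 18943). In SNL L4, 5 of 7 fibroblast markers were called higher (4179 to 4756 and 6859 to 7222), 3 of 9 macrophage markers higher (362 to 431 and 451 to 583), 3 of 11 Schwann cell markers higher and 3 lower (9727 to 11782 and 11884 to 14372), and 4 of 6 markers of blood and neutrophils lower (2959 to 3350 and 969 to 1198). Satellite glia markers were called higher in none of 6 and lower in 2 in SNL L4, and 2 and 2 in SNL L5. Of the adipocyte markers 2 of 9 were called higher in SNL L4 (306 to 358 and 364 to 494) and 3 higher and 1 lower in SNL L5 (256 to 292 and 237 to 313). In SNL L5, 5 of 6 blood and neutrophil markers were called lower (4004 to 5596 and 3274 to 3661), and 4 of 5 endothelial markers higher and 1 lower (586 to 670 and 765 to 835). In sham rats, Schwann cell markers were called higher and lower in 2 and 6 of 11 in L4 (6831 to 8159 and 8903 to 9880) and 2 and 7 in L5 (5517 to 5857 and 6656 to 7647), so that the sums were higher while most markers called were lower. Satellite glia markers were called higher in 2 of 6 in sham L4 (3452 to 4083 and 4075 to 4373) and in 4, with 1 lower, in sham L5 (3136 to 3386 and 3912 to 4580). In sham L5, 2 of 9 macrophage markers were called higher and 5 lower (559 to 645 and 480.4 to 610.2), 5 of 6 blood and neutrophil markers higher and 1 lower (1838 to 2180 and 2155 to 2367), 5 of 9 adipocyte markers higher and 2 lower (219 to 255 and 207 to 248), and 3 of 7 fibroblast markers lower. The part of these shifts in cell types, and of the GAPDH ratio, in the differences of the lipid genes was not tested.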

How the data were processed

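RNA of single ganglia was hybridised to rat Affymetrix arrays, and the authors deposited 1 linear signal intensity per probeset and array, made with MAS 5 (version not given in the sources used here). Each array had been scaled to a trimmed mean of 99.99. The values were taken as log2(signal + 16) with no further scaling. The 57 control probesets were left out, and limma 3.58.1 (R 4.3.3; lmFit, eBayes with an intensity trend) was fitted over 31042 probesets on the 10 arrays of a comparison, or the 20 arrays for differences between comparisons, with Benjamini-Hochberg adjustment. No deposited column went unused (0). Array number limits the precision, and each array is another ganglion. Gene symbols came from the platform annotation. The genes and lists were chosen with earlier results of these data known. Every array was printed for called genes whose sides did not overlap, by size of change, up to 6 sterol, 2 regulator and 6 fatty acid genes per comparison; the largest 4 called genes were named from each other list. The sides of 1 rat pair by design, and their deviations from group means correlated at -0.14 to 0.10. Alternatives for the comparisons of sides were offsets 1 and 64, quantile normalization, equal medians, dim probesets left out, no intensity trend, a fit of all 8 groups, the rat as replicate block, the mean of a gene's probesets, the methods' t-test and each array left out. The differences between comparisons were refitted only with quantile normalization, equal medians, a replicate block and each array left out. For these the block held the ganglia of a rat at a segment. The fits were tested on simulated data.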

Additional observations from a re-analysis of the deposited data

Results flagged for a closer look

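In 6 of 78 groups of 5 arrays, 1 array stood apart from the other 4; chance gives about 1 in 20 such groups. These were rat 48 in ipsilateral SNL L4 for Pmvk (338, nearest 363) and for Fads1 (769, nearest 615), rat 8 in contralateral SNL L5 for Ebp (160, nearest 127) and for Srebf2 (502, nearest 567), rat 48 in contralateral SNL L5 for Elovl6 (374, nearest 349), and rat 22 in ipsilateral sham L5 for Acly (1443, nearest 1218).

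The values that follow are of the brightest probeset of a gene, and some dimmer probesets ordered the cohorts the other way. The side difference differed between SNL and sham rats at L4 (limma, log2 scale) for Srebf2 (-0.89), Acly (-0.77), Elovl5 (-0.72), Elovl6 (-0.62), Msmo1 (-0.51), Insig1 (-0.43), Tm7sf2 (0.45), Fads1 (0.45), Dhcr7 (0.46), Acaca (0.48), Lss (0.49), Scap (0.51), Pmvk (0.63) and Acsl3 (0.65). At L5 it differed for Elovl6 (-1.07), Insig1 (-0.79), Elovl5 (-0.73), Srebf2 (-0.66), Cyp51 (-0.43), Ebp (-0.39), Sqle (-0.31), Scd (-0.30), Fdps (-0.22), Sc5d (0.30), Acaca (0.32), Nsdhl (0.37), Fads1 (0.41), Lss (0.43), Acsl4 (0.49), Mvk (0.51), Srebf1 (0.58), Mvd (0.59), Scap (0.62) and Dhcr7 (0.84). Between L5 and L4 of SNL rats it differed for Ebp (-0.65), Tm7sf2 (-0.64), Acsl3 (-0.57), Pmvk (-0.56), Fasn (-0.44), Insig1 (-0.42), Fdps (-0.28), Cyp51 (-0.22), Srebf2 (0.44), Msmo1 (0.52), Acsl4 (0.68) and Acly (0.72).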

How the results depend on the processing

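Of the 39 results given array by array, 16 kept their call under every alternative, and of 389 fits other than leaving out an array 351 kept the call, 35 lost it and 3 turned. The cause of these changes was not tested. Directions turned for Nsdhl in SNL L5 (-0.045), Insig1 in sham L4 (-0.035), Fdps in sham L5 (-0.14) and Insig1 in sham L5 (-0.19) with equal medians; for Fdps (-0.17) and Insig1 (-0.14) in sham L5 and Fdps in SNL minus sham at L5 (0.14) with quantile normalization; and for Acsl1 in SNL L5 (0.037), Hsd17b7 in sham L5 (0.056) and Scap in sham L5 (0.044) with probesets averaged.

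Counts of sterol genes called higher moved in SNL L4 to 1 (equal medians, no intensity trend, t-test), in SNL L5 to 0 (equal medians, t-test), 3 (fit of all 8 groups) and 2 (probesets averaged), in sham L4 to 0 (equal medians) and in sham L5 to 0 (quantile normalization, equal medians, t-test). Sterol genes called lower moved in SNL L4 to 1 (no trend, t-test), in SNL L5 to 12 (equal medians), in sham L4 to 3 (quantile, no trend), 13 (equal medians), 2 (t-test) and 9 (probesets averaged), in sham L5 to 17 (equal medians) and 1 (t-test), and in SNL minus sham at L4 to 2 (quantile). Fatty acid genes called higher moved in SNL L4 to 1 (t-test), in SNL L5 and sham L5 to 1 (equal medians) and in sham L4 to 1 (probesets averaged). Those called lower moved in SNL L4 to 5 (equal medians), in SNL L5 to 3 (quantile), 2 (no trend) and 1 (t-test), in sham L4 to 7 (equal medians) and 0 (no trend, t-test), and in sham L5 to 9 (equal medians), 0 (t-test) and 2 (fit of all 8 groups, probesets averaged). The methods' t-test called 7, 11, 6 and 4 of the 33 genes in SNL L4, SNL L5, sham L4 and sham L5 at its own threshold, and 13, 20, 10 and 13 after Benjamini-Hochberg adjustment.

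Leaving out 1 array gave 1 to 3 sterol genes lower in SNL L4 (1 without ipsilateral rat 8), 3 to 5 higher in SNL L5 (3 without contralateral rats 4, 9, 18 or 48 or ipsilateral rats 8 or 9), 3 to 6 lower in sham L4 (3 without contralateral rats 17, 22 or 23 or ipsilateral rats 17 or 22) and 1 to 2 lower in SNL minus sham at L4 (2 without SNL ipsilateral rat 9). It gave 3 to 5 fatty acid genes lower in SNL L5 (3 without contralateral rats 8 or 18 or ipsilateral rat 4), 0 to 3 lower in sham L4 (0 without contralateral rats 17, 22 or 23 or ipsilateral rat 17) and 2 to 4 higher in sham L5 (4 without contralateral rat 22 or ipsilateral rat 23). With the rat as replicate block, 68 of 71 called side results kept their call; Insig1 in sham L5 (0.13, adjusted p = 0.0807 by limma), Nsdhl in SNL L5 (0.16, 0.0531) and Nsdhl in sham L5 (-0.20, 0.0611) did not, and 45 of 46 called differences kept theirs, with Acaca at L5 (0.32, 0.0593) the exception.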
